A study of Mus musculus with 16 samples.

Results

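A set of 9 mouse genes, listed together as early embryonic genes, was followed through head development. The genes were Sall4, Nr6a1, Prtg, Irs4, Dusp9, Car4, Pou5f1, Utf1 and Tdgf1, 9 of the 18193 genes measured, and all 22 of their probe sets are described. They were matched by symbol, and had been selected on lower array intensity at E11.5 and E13.5 than at E9.5, with earlier results of these data in view. The values did not bear this out for all of them. Sall4, Nr6a1, Prtg, Irs4, Dusp9 and Car4 were high at E9.5 and lower at both later stages. Pou5f1 and Tdgf1 were in or near the dimmest 25% of each array at every stage, and Utf1 stood at about the median of the arrays throughout. Total RNA came from heads of mouse embryos, with 6 arrays at E9.5, 4 at E11.5 and 6 at E13.5, 1 sample an array. The labels give no strain, genotype or treatment, and the extent of tissue around the brain is not stated. The one-cycle labelling kit used for both earlier stages was replaced by another maker's kit for every E13.5 sample, so in every comparison with E13.5 the kit and the stage cannot be told apart.

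Pluripotent cells are held in their state by a small circuit of transcription factors around Pou5f1 (Oct4), with Sall4 and Utf1 among its partners and targets. As the embryo passes through gastrulation and forms the neural plate, the circuit is switched off, and Nr6a1, an orphan nuclear receptor also called germ cell nuclear factor, is a known repressor of Pou5f1 at that step. Other genes of the early embryo, such as the surface protein gene Prtg, are used for a longer time, in the neural tube and mesoderm, before they too are turned down.

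Values are log2 of deposited array intensities, and a level is compared only between arrays for the same probe set, never between genes. On every array the lower quartile of the probe sets was at 3.58 and the median at 5.0 on this scale, and values at or under the lower quartile are called dim here. Each gene is represented by its brightest probe set, the one with the highest mean over the 16 arrays. The contrasts of E11.5 and E13.5 with E9.5 chose the genes, so their differences in these contrasts are given as a description with no test. Among all genes, 4887 (26.9%) were lower and 5632 (31.0%) higher at E11.5 than at E9.5, and 5303 (29.1%) were lower and 5944 (32.7%) higher at E13.5 than at E9.5, by limma with an adjusted p under 0.05. In heads, less transcript per cell and fewer cells that hold it cannot be told apart. Spike-in poly-A controls averaged 7.93 ± 0.26, 5.64 ± 0.12 and 5.35 ± 0.10 (mean log2 ± SD) at E9.5, E11.5 and E13.5. Hybridisation controls averaged 10.27 ± 0.58, 11.28 ± 0.25 and 9.75 ± 0.10. The part in the members' differences of what moved these controls was not tested. Of 11 measured neuroepithelial markers, 0 had a dim mean at any stage, and their levels are given with the other tissue markers. The labels do not say whether the embryos of a stage came from separate litters, and p-values measure the spread between these arrays.

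Among the transcription factors, Sall4, a zinc finger protein needed for embryonic stem cell identity, was lower at each later stage. Its log2 level ran from 9.61 to 9.96 (median 9.76) at E9.5, was 7.20, 7.21, 6.82 and 7.23 at E11.5, and ran from 4.09 to 5.09 (median 4.83) at E13.5. No arrays of different stages overlapped. The log2 difference was -2.64 ± 0.14 (SE) for E11.5 against E9.5 and -5.00 ± 0.13 for E13.5 against E9.5, which is a 32.0-fold lower intensity. Of the E13.5 difference on the log2 scale, 52.9% had been reached by E11.5.

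Nr6a1 was at 8.87 to 9.49 (median 9.08) at E9.5, at 6.25, 5.88, 5.21 and 5.43 at E11.5 and at 4.70 to 4.95 (median 4.81) at E13.5. Here too the stages did not overlap, and the E11.5 arrays were the most spread (SD 0.47). The log2 difference was -3.43 ± 0.15 at E11.5 and -4.30 ± 0.14 at E13.5 against E9.5, with 79.8% of the latest difference reached by E11.5. This share is that of the brightest probe set and takes in the change of kit. On the probe set ranked 3 by brightness, the differences were -0.43 ± 0.21 and -1.90 ± 0.19.

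Pou5f1, the central factor of pluripotency, had 1 probe set, at 3.46 to 4.00 (median 3.64) at E9.5, at 3.70, 3.58, 3.46 and 3.32 at E11.5 and at 3.17 to 3.58 (median 3.46) at E13.5. In intensity units this is 11 to 16 at E9.5, under the array median of 32. The stages overlapped, and 3 of 6, 3 of 4 and 6 of 6 arrays were dim at E9.5, E11.5 and E13.5. Its log2 difference from E9.5 was -0.19 ± 0.11 at E11.5 and -0.30 ± 0.10 at E13.5, and no stage had a high level. Probe sets of Pou5f1 may also bind transcripts of its processed copies in the genome.

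Utf1, a chromatin-associated factor of embryonic stem cells, was at 4.81 to 5.73 (median 5.10) at E9.5, at 5.13, 5.04, 5.43 and 5.21 at E11.5 and at 5.39 to 5.58 (median 5.48) at E13.5. Every E11.5 and E13.5 array lay within the range of the E9.5 arrays. The difference from E9.5 was 0.01 ± 0.14 at E11.5 and 0.29 ± 0.13 at E13.5. Its other probe sets differed from E9.5 by 0.37 ± 0.16 and -0.50 ± 0.11 at E11.5.

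**Figure D1:**
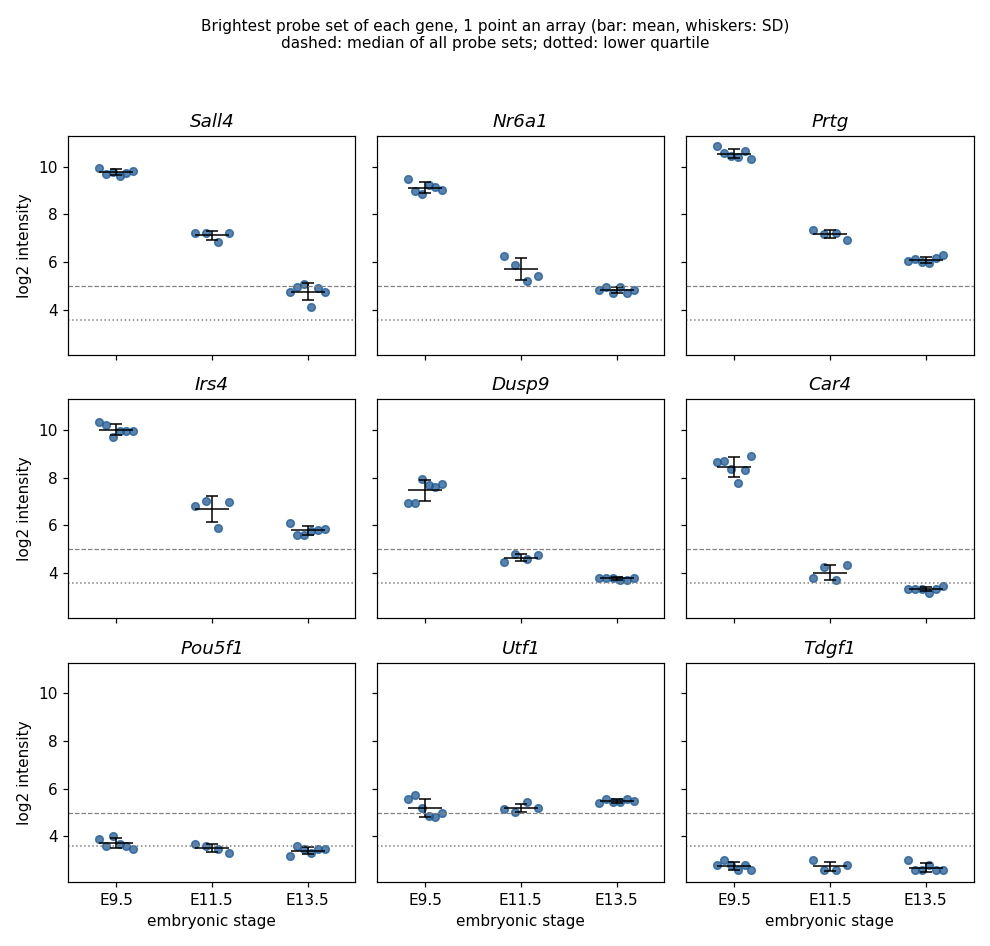
Log2 intensity of the brightest probe set of each of the 9 genes on each array by stage, with stage means (bars) and SD (whiskers). The dashed line marks the median (5.0) and the dotted line the lower quartile (3.58) of all probe sets. Sall4, Nr6a1, Prtg, Irs4, Dusp9 and Car4 step down with stage, while Pou5f1, Utf1 and Tdgf1 stay level near or under the dashed line.

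At the cell surface, Prtg (protogenin), an immunoglobulin superfamily receptor of the Dcc family, had 10.31 to 10.87 (median 10.52) at E9.5, 7.33, 7.19, 7.21 and 6.93 at E11.5 and 5.95 to 6.30 (median 6.08) at E13.5. The stages were separate on every array. The log2 difference from E9.5 was -3.38 ± 0.11 (10.4-fold) at E11.5 and -4.45 ± 0.10 (21.9-fold) at E13.5.

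Car4, a membrane-anchored carbonic anhydrase that interconverts carbon dioxide and bicarbonate, was at 7.76 to 8.92 (median 8.51) at E9.5. It was at 3.81, 4.25, 3.70 and 4.32 at E11.5 and at 3.17 to 3.46 (median 3.32) at E13.5, where 6 of 6 arrays were dim. The differences of -4.43 ± 0.17 at E11.5 and -5.13 ± 0.15 at E13.5 against E9.5 were the widest among the brightest probe sets of the 9 genes in both contrasts.

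Tdgf1 (Cripto), the co-receptor through which Nodal signals in the epiblast, had 1 probe set whose intensities were 6 to 8 on all 16 arrays. Its log2 values were 2.58 to 3.00 at E9.5, 3.00, 2.58, 2.58 and 2.81 at E11.5 and 2.58 to 3.00 at E13.5, and every array was dim. The mean lay at percentiles 4.9, 4.7 and 3.7 of the array at E9.5, E11.5 and E13.5. Differences of -0.02 ± 0.11 at E11.5 and -0.07 ± 0.10 at E13.5 against E9.5 are smaller than 1 unit of rounding at this level.

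Of the signalling genes, Irs4, an adaptor that insulin and IGF receptors phosphorylate, was at 9.69 to 10.32 (median 9.96) at E9.5, at 6.81, 7.02, 5.88 and 7.0 at E11.5 and at 5.61 to 6.11 (median 5.79) at E13.5. E9.5 was separate from both later stages. E11.5 sample 51, at 5.88, fell inside the E13.5 range. The difference from E9.5 was -3.33 ± 0.18 (10.1-fold) at E11.5 and -4.22 ± 0.16 (18.6-fold) at E13.5.

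Dusp9, a phosphatase that inactivates MAP kinases and is strongly expressed in mouse embryonic stem cells, was at 6.92 to 7.93 (median 7.66) at E9.5, at 4.46, 4.81, 4.58 and 4.75 at E11.5 and at 3.70 to 3.81 (median 3.81) at E13.5. The stages did not overlap, and from E11.5 on every array was under the array median. The difference from E9.5 was -2.82 ± 0.16 (7.07-fold) at E11.5 and -3.70 ± 0.14 (13-fold) at E13.5. The brightest probe set of Dusp9 is of a type that may bind related sequences, and the second-brightest gave -2.52 ± 0.19 and -3.74 ± 0.17.

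Taking the 9 genes together, 6 had E11.5 arrays that all lay below the E9.5 arrays, against 17.8% of all genes, and the same number had E13.5 arrays below the E9.5 arrays, against 20.9%. These shares describe the contrasts that chose the genes, and nothing is read from them. Ordered from the largest fall against E9.5, Car4, Nr6a1, Prtg, Irs4, Dusp9 and Sall4 held ranks 2, 3, 4, 5, 8 and 10 at E11.5 among 18193 genes, whereas Pou5f1, Tdgf1 and Utf1 held ranks 5711, 8346 and 8903. The median difference of the 9 genes was -2.82 at E11.5 and -4.22 at E13.5 against E9.5, and that of all genes was 0.02 and 0.01.

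The other probe sets showed how far each gene's picture depends on the probes. Of all 22 probe sets, 15 were lower on every E11.5 array and 16 on every E13.5 array than on any E9.5 array. Of these, 14 and 16 were among the 17 probe sets of the 6 genes high at E9.5. The share over all probe sets was not computed, and over all genes, by the brightest probe set, it was 17.8% and 20.9%. These contrasts chose the genes, and nothing is read from the counts. All 3 probe sets of Prtg were among those lower, at -3.38, -4.08 and -4.24 for E11.5 against E9.5. Against E9.5 at E13.5 they differed by -4.45, -5.54 and -4.23, so that the second probe set of Prtg showed a wider difference than any probe set of Car4. The third was at 2.81, 2.81, 2.32 and 2.81 at E11.5 and at 2.58 to 2.81 at E13.5, all of them dim. Sall4 had differences of -2.64 and -2.12 at E11.5 and of -5.00 and -3.44 at E13.5 against E9.5, and Car4 of -4.43 and -4.03 at E11.5.

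Nr6a1 and Irs4 had probe sets that disagreed. For Nr6a1, the probe sets ranked 1, 2 and 4 by brightness differed from E9.5 by -3.43 ± 0.16, -3.18 ± 0.14 and -2.18 ± 0.19 at E11.5. The probe set ranked 3 was at 4.91, 5.09, 6.19 and 5.43 at E11.5 and at 5.21 to 6.39 at E9.5. These ranges overlapped (difference -0.43 ± 0.21), with E11.5 sample 51 at 6.19 alone above the E9.5 median of 5.83. At E13.5 this probe set was at 3.81 to 4.09, below every array of both earlier stages. The faintest was dim on 6 of 6 E9.5 arrays and differed from E9.5 by 0.28 ± 0.09 at E11.5. For Irs4, the second probe set was at 5.49 to 6.07 at E9.5 and at 5.04, 5.83, 5.21 and 5.13 at E11.5, a difference of -0.49 ± 0.14 against -3.33 on the first. For Dusp9, the third probe set differed by -1.49 ± 0.20 at E11.5 and by -1.32 ± 0.18 at E13.5 against E9.5.

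**Figure D2:**
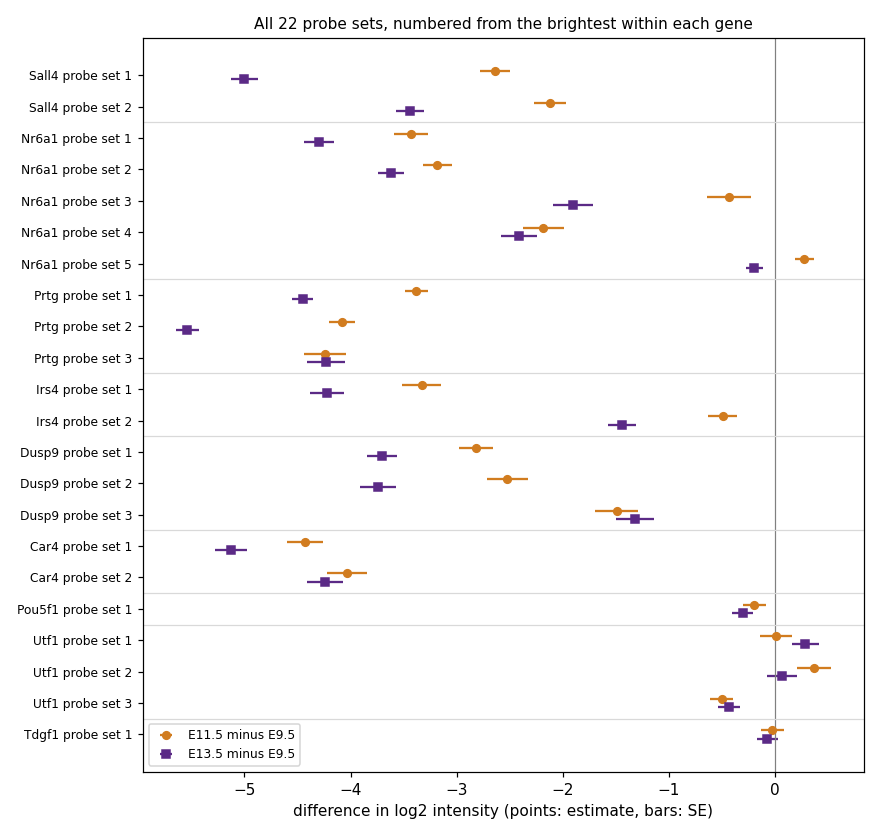
Differences in log2 intensity from E9.5 for all 22 probe sets, at E11.5 (circles) and E13.5 (squares), with SE as bars. All 3 probe sets of Prtg lie at -3.38 or below at both later stages, the second probe set of Irs4 lies far to the right of its first, and those of Pou5f1, Utf1 and Tdgf1 cluster around 0.

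The comparison of E13.5 with E11.5 was not itself used to choose the genes, but both sets of its arrays entered the contrasts that did. Its p-values are therefore not independent of the choice, and nothing about the genes as a group is read from the count. By limma, 6 of the 9 genes fell at E13.5 against E11.5, 0 rose and 3 were not called, where 27.0% of all genes were lower and 27.9% higher. The fall was largest for Sall4, at 4.76 ± 0.35 (SD, n = 6) at E13.5 and 7.11 ± 0.20 (n = 4) at E11.5, a log2 difference of -2.36 ± 0.14 (SE, 5.12-fold, limma adjusted p = 3.6e-11). Prtg fell by 1.08 ± 0.11 (2.11-fold, limma adjusted p = 4.4e-08). Irs4 (-0.88 ± 0.18, limma adjusted p = 0.00024), Dusp9 (-0.88 ± 0.16, limma adjusted p = 8.9e-05), Nr6a1 (-0.87 ± 0.15, limma adjusted p = 7.1e-05) and Car4 (-0.70 ± 0.17, limma adjusted p = 0.00136) fell less. The call of Car4 was lost on its second probe set (-0.21 ± 0.19, limma adjusted p = 0.339 among second probe sets).

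Pou5f1 (-0.11, 95% interval -0.34 to 0.12, limma adjusted p = 0.426), Tdgf1 (-0.05, interval -0.28 to 0.18, limma adjusted p = 0.706) and Utf1 (0.28, interval -0.02 to 0.59, limma adjusted p = 0.107) were not called at E13.5 against E11.5. Utf1 was called higher when only these stages were fitted (limma adjusted p = 0.00817) and when E9.5 samples 13 and 15 were left out (limma adjusted p = 0.0118), its difference staying at 0.28. Over all 22 probe sets of the 9 genes, 13 were lower at E13.5 than at E11.5, where 26.5% of all probe sets were lower. All 13 were among the 17 of the 6 genes. These 6 were set apart after their values were seen, so nothing is read from the count. Of the 17, the 4 not called were the third of Prtg, the third of Dusp9, the second of Car4 and the one ranked 4 of Nr6a1. The E13.5 sample names begin with B62 or B63 (3 arrays each). The Sall4 difference from E11.5 was -2.18 in B62 and -2.53 in B63, and that of Prtg -1.12 and -1.03. With the name prefix as a random block the 6 genes stayed called (limma adjusted p = 2.9e-08 for Sall4 to 0.00981 for Car4).

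Within E9.5 the order of the arrays was not the same for all of the genes. Sample 13 was the highest of the 6 arrays for Sall4 (9.96), Nr6a1 (9.49), Prtg (10.87) and Irs4 (10.32). For Irs4, samples 13 and 15 (10.32 and 10.22) both lay above the other 4 arrays, which ran from 9.69 to 9.97. Dusp9 went the other way, at 6.94 and 6.92 in samples 13 and 15 and at 7.62 to 7.93 in the other arrays. Utf1 was at 5.55 and 5.73 in these 2 samples and at 4.81 to 5.21 in the others. Car4 had the widest range (1.16), with sample 19 at 7.76 and sample 24 at 8.92. In samples 13 and 15 the summed intensity of 8 neuronal markers was 631 and 739, in a stage range of 631 to 1747, and that of 10 surface ectoderm markers was 1928 and 1912, in a stage range of 1159 to 1928. The part of these tissues in the members' spread was not tested. Without both samples, E11.5 differed from E9.5 by -3.09 for Dusp9, -3.21 for Irs4, -3.28 for Prtg, -3.37 for Nr6a1, -4.32 for Car4, -2.62 for Sall4 and 0.23 for Utf1.

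**Figure D3:**
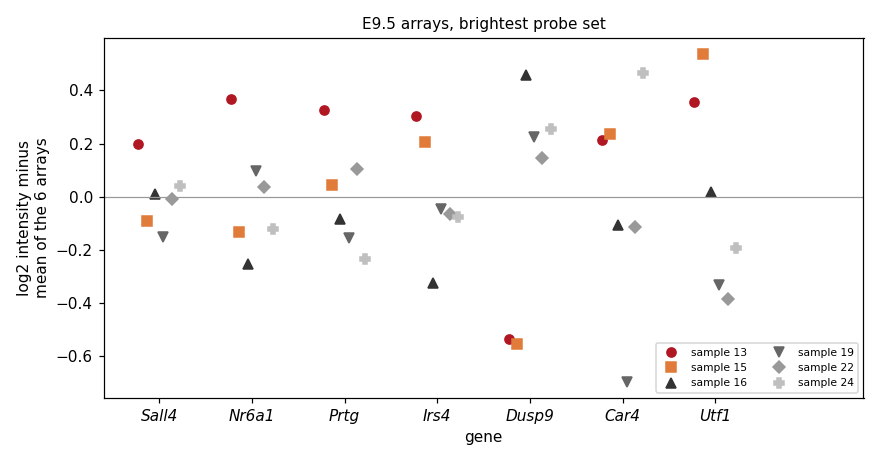
Log2 intensity on each E9.5 array minus the mean of the 6 arrays, for 7 of the genes (brightest probe set, 1 symbol a sample). Samples 13 and 15 lie lowest for Dusp9 and highest for Irs4 and Utf1.

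The courses of close relatives varied by family, and no difference between a relative and a member was tested. Their p-values come from the fit without the name prefix as a block. The 3 measured paralogues of Sall4, which act in organ formation, were not called at E11.5 against E9.5: Sall1 differed by -0.16 ± 0.09 (limma adjusted p = 0.127), Sall2 by 0.09 ± 0.16 (limma adjusted p = 0.642) and Sall3 by -0.01 ± 0.11 (limma adjusted p = 0.972). All 3 fell at E13.5 against E11.5, with log2 differences of -1.02, -1.15 and -0.44 (limma adjusted p = 4.4e-09, 2.9e-06 and 0.0016), beside -2.36 for Sall4.

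In the receptor family of Prtg, Igdcc3 alone of 4 measured relatives fell at both steps. It was at 11.14 ± 0.22, 10.13 ± 0.33 and 7.35 ± 0.17 (SD) at E9.5, E11.5 and E13.5, with log2 differences of -1.02 (limma adjusted p = 2.4e-06) and -2.78 (limma adjusted p = 1.6e-12) for the steps in turn. Most of its fall thus lay in the later interval, which takes in the change of kit. Prtg had reached 75.8% of its difference by E11.5 on its brightest probe set. Igdcc4 rose by 2.18 ± 0.13 (limma adjusted p = 2.6e-11) at E11.5, the netrin receptor gene Dcc by 1.93 ± 0.13 (limma adjusted p = 1.2e-10), and its relative Neo1 by 0.23 ± 0.08 (limma adjusted p = 0.0117).

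Of 14 measured insulin and IGF signalling genes, 9 rose, 3 fell and 2 were not called at E11.5 against E9.5 (median 0.50). The adaptor gene Irs1 rose by 1.26 ± 0.09 (limma adjusted p = 2.7e-10), while Irs2 fell by 0.43 ± 0.13 (limma adjusted p = 0.00775). The growth factor gene Igf1 rose by 2.16 ± 0.09 (limma adjusted p = 1.5e-13). Falls besides Irs2 were those of Pik3cb, a catalytic subunit of phosphoinositide 3-kinase (-1.43 ± 0.09), and of the adaptor gene Grb14 (-0.88 ± 0.14), whose means at E11.5 were 3.58 and 3.87. In the later step 8 rose and 4 fell (median 0.53).

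Among 15 other carbonic anhydrases, 4 rose, 5 fell and 6 were not called at E11.5 against E9.5 (median -0.13). Car14 fell at both steps, with differences of -0.65 ± 0.09 (limma adjusted p = 2.0e-06) and -2.05 (limma adjusted p = 1.4e-13). Car3 (-1.95 ± 0.22), Car8 (-1.15 ± 0.12) and Car13 (-1.13 ± 0.09) fell at E11.5. Car7 (2.24 ± 0.11), Car11 (1.02 ± 0.17) and Car2, an enzyme of red cells and glia (0.67 ± 0.16), rose. In the later step 3 rose and 4 fell (median -0.06), Car2 (-2.29 ± 0.16) and Car7 (-1.49 ± 0.11) among the falls. Car3 (1.48 ± 0.22) was among the rises of that step. Of 16 MAP kinase phosphatase and FGF feedback genes, 10 rose, 3 fell and 3 were not called at E11.5 (median 0.36). Dusp8 (1.88 ± 0.13), Dusp1 (0.98 ± 0.11), Dusp4 (0.93 ± 0.16) and Dusp6 (0.58 ± 0.09), phosphatases of the same kind as Dusp9, rose. Dusp5 (-1.07 ± 0.16), also a phosphatase of this kind, fell, as did Etv5 (-0.56 ± 0.13) and Spred2 (-0.43 ± 0.08). In the later step 3 rose and 6 fell (median -0.18), Dusp6 (-0.79 ± 0.09) among the falls.

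Among 9 POU domain genes besides Pou5f1, 8 rose, 0 fell and 1 was not called at E11.5 against E9.5 (median 0.52). The rises were led by Pou6f1 (1.67 ± 0.10), Pou3f2 (1.32 ± 0.13) and Pou3f3 (1.16 ± 0.13), factors of the developing nervous system, and Pou3f1 rose by 0.44 ± 0.10. At E13.5 against E11.5, 1 rose and 6 fell (median -0.33), among them Pou3f2 (-1.37 ± 0.13), whose E13.5 mean of 6.16 was close to its E9.5 mean of 6.21. Of 14 orphan nuclear receptors, 5 rose and 2 fell. Nr4a2, a factor of dopamine neurons (1.33 ± 0.10), Esrrg (1.06 ± 0.10) and Nr2c2 (0.96 ± 0.09) rose, while Nr2f6 (-0.43 ± 0.13) and Nr2c1 (-0.25 ± 0.10) fell, beside -3.43 for Nr6a1. In the later step 2 of the receptors rose and 8 fell (median -0.37).

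**Figure D4:**
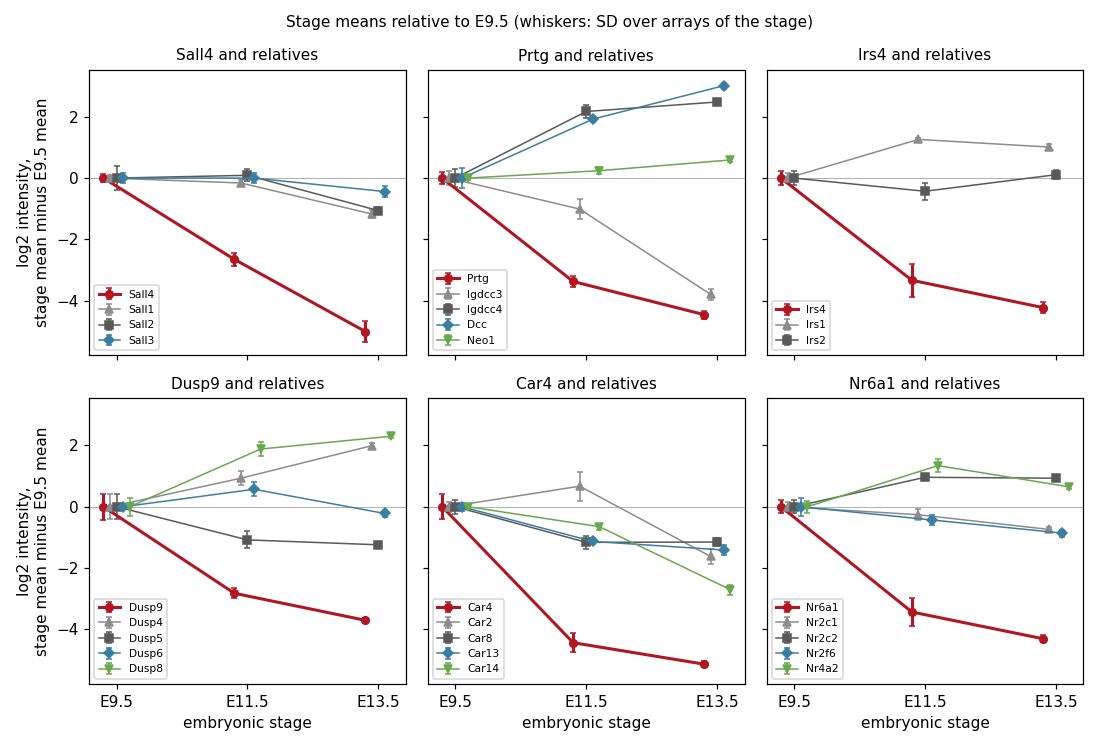
Stage mean of log2 intensity minus the E9.5 mean for 6 of the genes (thick lines) and relatives, with SD over the arrays of a stage as whiskers. Each thick line lies lowest in its panel at E11.5 and E13.5, and Igdcc3 and Car14 are the relatives that decline most by E13.5.

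The wider group of pluripotency and epiblast genes did not move as a block. Of 35 measured, 6 rose, 11 fell and 18 were not called at E11.5 against E9.5, with a median of -0.08 beside 0.02 for all genes. At E13.5 against E11.5, 8 rose, 13 fell and 14 were not called (median -0.07). The largest falls at E11.5 were those of the let-7 regulator Lin28a (-5.44 ± 0.13, limma adjusted p = 9.9e-17), the ubiquitin ligase gene Trim71 (-2.99 ± 0.12, limma adjusted p = 1.3e-13) and the Ras-like gene Eras (-1.33 ± 0.19, limma adjusted p = 6.9e-06). Eras was at 4.27 at E9.5, under the array median. The rises were led by the nuclear receptor gene Esrrb (0.94 ± 0.19, limma adjusted p = 3.2e-04), Klf4 (0.68 ± 0.12, limma adjusted p = 3.6e-05) and Nr5a2 (0.60 ± 0.09, limma adjusted p = 1.2e-05). Klf4 was at 4.08, 4.76 and 7.88 in stage order and Nr5a2 at 4.42, 5.03 and 4.76, both under the array median at E9.5. Esrrb was at 5.22, 6.17 and 5.33. Nanog, Zfp42, Dppa2, Lin28b and Tcl1 were dim at every stage, as Tdgf1 was.

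Nodal pathway genes around Tdgf1 were present on the array. Of 15 measured, 10 rose, 2 fell and 3 were not called at E11.5 against E9.5 (median 0.30). The receptor genes Acvr2a (0.96 ± 0.09) and Acvr1b (0.78 ± 0.09) and the nuclear partner gene Foxh1 (1.10 ± 0.15) rose, and Smad2 (-0.39 ± 0.08) and Acvr2b (-0.38 ± 0.11) fell. At E13.5 against E11.5, 2 rose and 9 fell (median -0.29). Nodal itself, named after its values were seen, was at 4.69 ± 0.14, 5.16 ± 0.18 and 4.52 ± 0.13 (SD) at E9.5, E11.5 and E13.5. Lefty2, an inhibitor of Nodal, and the receptor gene Acvr1c were dim at every stage. Both are nevertheless counted among the rises at E11.5 (0.23 ± 0.09 and 0.21 ± 0.08) and among the falls of the later step.

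Markers of the tissues in the head and of others that could hold early embryonic transcripts gave the following levels. Of 11 neuroepithelial markers, 5 rose and 4 fell at E11.5 against E9.5 (median 0.27), the falls being those of the patterning genes En1 (-1.68 ± 0.10), En2 (-0.83 ± 0.13), Otx2 (-0.73 ± 0.13) and Pax6 (-0.27 ± 0.11). At E13.5, 8 fell and 3 rose against E9.5 (median -0.82), and 9 fell and 1 rose against E11.5 (median -0.79). By count these markers were thus mostly lower at E13.5. Their summed intensity was 5867 to 7583, 9750 to 10516 and 7270 to 7815 at E9.5, E11.5 and E13.5. Of 8 measured germ cell markers, Ddx4, Dazl, Prdm14 and Mael were dim at every stage, and the summed intensity of the list was 237 to 307, 226 to 272 and 215 to 265 at E9.5, E11.5 and E13.5. At E11.5 against E9.5, 2 of them rose and 4 fell. The 15 tail bud and trunk markers summed to 359 to 448, 361 to 470 and 316 to 359 in stage order, with 4 higher and 3 lower at E11.5, and Cdx4, Hoxa10 and Hoxd10 dim at every stage. The 9 yolk sac and visceral endoderm markers summed to 204 to 270, 519 to 1405 and 3472 to 4174 in stage order, of which 2 rose and 2 fell at E11.5. The gain in that sum lay in Ttr, singled out after its values were seen and also a gene of the choroid plexus, at 5.20, 9.42 and 11.82 on the log2 scale in stage order, while the stage means of the other 8 lay between 3.58 and 5.47. Of 10 surface ectoderm markers, 5 fell and 0 rose at E11.5, and the list summed to 1159 to 1928, 829 to 905 and 1541 to 1666 in stage order. The keratin genes Krt18 (-2.46 ± 0.13) and Krt8 (-1.79 ± 0.19) led these falls. At E13.5 against E11.5, 8 of these 10 rose and 1 fell. Endothelial markers fell for 4 of 8 and rose for 1 at E11.5, at sums of 1020 to 1258, 763 to 884 and 1122 to 1277. Blood markers rose for 4 of 9 and fell for 2 at E11.5, at sums of 26311 to 31086, 27847 to 39333 and 13919 to 17311. Head mesenchyme markers rose for 6 of 9 and fell for 0, at sums of 1979 to 2353, 4808 to 5048 and 5457 to 6498. At E13.5 against E11.5, 0 blood markers rose and 8 fell, and 3 mesenchyme markers rose and 3 fell. In that step 4 endothelial markers rose and 1 fell, 1 yolk sac marker rose and 2 fell, 3 tail bud markers rose and 4 fell, and 2 germ cell markers rose and 1 fell. Neuronal markers rose for 8 of 8 at E11.5 and for 5 of 8 in the later step, at sums of 631 to 1747, 7338 to 8258 and 10697 to 11592. The part of these tissues in the members' differences was not tested.

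Profiles were compared by the root mean square distance between log2 values over the 16 arrays, after each gene was centred on its own mean. Among the 6 genes high at E9.5, Nr6a1 and Prtg were closest (0.236), followed by Nr6a1 and Irs4 (0.26) and by Prtg and Irs4 (0.325), and Dusp9 and Car4 were farthest apart (0.835). For Prtg, the nearest genes of all were Nr6a1 and Trim71 (0.253). Sall4 was nearest to Trim71 (0.414) and to the zinc finger gene Zbtb16 (0.539), which was at 9.09, 7.43 and 5.05 at E9.5, E11.5 and E13.5. Dusp9 was nearest to Ccdc160 (0.286) and Epop (0.41), a Polycomb-associated factor of embryonic stem cells, and Car4 to Prtg (0.526) and Irs4 (0.563). The genes nearest to Pou5f1 (Maff), Utf1 (Nrcam) and Tdgf1 (Zdhhc2) lay at distances of 0.119, 0.127 and 0.113. By this measure genes that change little lie close to one another, so no shared course is read from these small distances.

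Against the mean profile of all 9 genes, the nearest were Gla (0.173), Snhg3 (0.199), Slc16a3 (0.202), Polr3g (0.208), Slc35g1 (0.215), Wfikkn1 (0.233), Ccdc160 (0.247) and Six6 (0.266). This mean is flattened by Pou5f1, Utf1 and Tdgf1. Against the mean of the other 6, a choice made after the values were seen, Trim71 was nearest (0.214), then Lrp2 (0.511) and Ccdc160 (0.564). These distances take in the change of kit at E13.5.

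Promoter windows from RefSeq on GRCm38.p6, 250 bases before to 50 after a start site, were found for 7 of the 9 genes. The 250 upstream bases of 4 genes are shown 5′ to 3′: Pou5f1, because Nr6a1 is known to act there, and Nr6a1, Prtg and Irs4, because their profiles lay closest together. Capitals mark AGGTCAAGG in Pou5f1 and the GC box core GGGCGG, or its complement CCGCCC, in Prtg and Irs4.
Pou5f1 (chr17:35505782-35506031, plus strand): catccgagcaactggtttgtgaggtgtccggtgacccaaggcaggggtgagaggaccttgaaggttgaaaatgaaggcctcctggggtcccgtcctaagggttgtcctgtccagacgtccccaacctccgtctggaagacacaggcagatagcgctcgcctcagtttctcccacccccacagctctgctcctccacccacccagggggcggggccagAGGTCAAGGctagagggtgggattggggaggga
Nr6a1 (chr2:38926462-38926711, minus strand): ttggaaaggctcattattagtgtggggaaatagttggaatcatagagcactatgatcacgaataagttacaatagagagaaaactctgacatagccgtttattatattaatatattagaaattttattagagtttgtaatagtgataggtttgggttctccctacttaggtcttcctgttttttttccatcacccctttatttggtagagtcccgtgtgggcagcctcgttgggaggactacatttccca
Prtg (chr9:72807024-72807273, plus strand): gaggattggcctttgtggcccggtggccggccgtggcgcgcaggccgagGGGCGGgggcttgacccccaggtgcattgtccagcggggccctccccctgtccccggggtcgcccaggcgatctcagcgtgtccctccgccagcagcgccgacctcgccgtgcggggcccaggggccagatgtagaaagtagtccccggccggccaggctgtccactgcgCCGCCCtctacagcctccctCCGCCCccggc
Irs4 (chrX:141725218-141725467, minus strand): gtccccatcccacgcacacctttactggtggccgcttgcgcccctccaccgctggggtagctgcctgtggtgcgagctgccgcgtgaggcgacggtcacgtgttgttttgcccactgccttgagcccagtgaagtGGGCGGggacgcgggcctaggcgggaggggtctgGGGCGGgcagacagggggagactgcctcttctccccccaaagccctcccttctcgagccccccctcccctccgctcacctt

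The letters AGGTCAAGG, searched on both strands, begin at -33 from the Pou5f1 start site and occur in 0.31% of 32851 such windows. This motif was chosen after the Pou5f1 sequence was read and is part of the direct repeat of AGGTCA with no spacer, to which Nr6a1 is known to bind. The full repeat occurs in 0.00609% of windows and in 0 of the members' windows. The octamer ATGCAAAT, the classical POU factor motif, occurs in 1.74% of windows and in 0 of those of the members. The GC box core occurs in 35.7% of all windows. It is present in the windows of Pou5f1, Utf1, Tdgf1, Prtg and Irs4, and does not overlap AGGTCAAGG in that of Pou5f1. These matches are letters in a window and not measured binding. Nr6a1, Prtg and Irs4 shared a course through the stages, but their windows differed in base composition, with 42.3%, 76.7% and 67.0% G or C beside a median of 52.7% over all windows. In the windows at the gene starts, the ratio of observed to chance CpG was 0.77 in Nr6a1, 0.80 in Prtg, 0.57 in Irs4 and 0.64 in Car4. It was 0.62 in Utf1, 0.55 in Tdgf1 and 0.37 in Pou5f1, beside a median of 0.38 over all windows.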

How the data were processed

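Transcripts of mouse embryo heads were measured on 1-colour short oligonucleotide arrays (16 arrays). The authors made intensity values with RMA, per the submitters' processing notes. The deposited intensities are whole numbers on a linear scale. Its version: not given in the sources used here. RMA makes values relative to the other transcripts of an array, and whole-number rounding is coarse for faint probe sets, the minimum per array being 4 or 5. Array number limits the precision.

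Log2 was taken. Of 45101 probe sets, 64 controls were left out, 34945 named 1 gene, 932 named several and 9160 were not named. The brightest probe set stood for each of 18193 genes. Symbols were looked up by gene identifier in RefSeq (0 changed, 204 not matched). There were 0 unused sample columns and 0 identical arrays. Stages were compared with limma 3.58.1 (R 4.3.3; lmFit, eBayes) in 1 fit of all arrays, with Benjamini-Hochberg adjustment over all genes (over 45037 probe sets for probe set counts). The method was tested on simulated data. Of 227 list entries, 212 were measured. Members and lists were chosen with earlier results of these data known. From each list, the up to 3 called genes with the largest fall and rise at E11.5 and the close paralogues of members were eligible to be named; a part is named.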

Additional observations from a re-analysis of the deposited data

Results flagged for a closer look

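A spread test within each stage (Dixon's gap over range) was applied to 66 groups of arrays, of which chance picks out about 1 in 20, and 6 values stood apart, on 4 arrays. E11.5 sample 51 was low for Sall4, at 6.82 with the other arrays at 7.20 to 7.23. It was also low on the third probe set of Prtg, at 2.32 with the others at 2.81, a step of 2 intensity units. E13.5 sample B63E5K was low on the first Sall4 probe set, at 4.09 with the others at 4.75 to 5.09, and high on the second Prtg probe set, at 5.64 with the others at 5.0 to 5.21. E13.5 sample B63E7K was high on the second Sall4 probe set, at 4.52 with the others at 4.00 to 4.17. E9.5 sample 16 was low on the second Prtg probe set, at 10.40 with the others at 10.74 to 10.91.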

How the results depend on the processing

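The 6 genes that fell at E13.5 against E11.5 remained called under quantile normalization, median centring, a trended and robust variance, the name prefix as a random block (consensus correlation 0.60), a fit of only the stages compared, the mean of all probe sets, without the dimmest 25% of genes and without each array in turn. With the second-brightest probe set, 5 were called. In the fit of only the stages compared, and without E9.5 samples 13 and 15, 7 genes were called, Utf1 being the seventh. Leaving out single arrays gave Sall4 a difference of -2.46 to -2.22 and Car4 -0.81 to -0.60. With the second-brightest probe set 4941 (E11.5 against E9.5), 5605 (E13.5 against E9.5) and 5040 (E13.5 against E11.5) of 9010 genes were called, where 10519, 11247 and 9980 of 18193 were called with the brightest. Of listed relatives, 68, 77 and 70 of 121 were then called, where 137, 140 and 138 of 210 were called. Fewer genes have a second probe set. With the name prefix as a random block, 7886 genes were called at E13.5 against E11.5 and 9258 at E13.5 against E9.5. Of listed relatives, 116 of 210 were called at E13.5 against E9.5 with this block. For E11.5 against E9.5, the mean of all probe sets gave -1.79 for Nr6a1 and -1.91 for Irs4, and the second-brightest gave -0.49 for Irs4. No paired analysis was possible because the stages share no replicate numbers. Dimness limits what can be said of Pou5f1 and Tdgf1.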
